A study of Homo sapiens with 6 samples.

Results

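The kinesins are the family of microtubule motors whose symbols begin with KIF. They were taken as every row of a deposited table of raw read counts with the symbol KIF followed by a number and an optional letter A, B or C, or KIFC1, KIFC2 or KIFC3. This gave 42 genes of 39396 in the table. By known function 14 were placed among the mitotic kinesins, 15 among the transport kinesins, 6 among kinesins of cilia and Hedgehog signalling and 7 among others.

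Kinesins hydrolyse ATP to walk along microtubules or to take them apart at their ends. Mitotic kinesins build the spindle, move chromosomes and organise the midzone where the cell divides, and their genes are transcribed mostly in G2 and mitosis. Transport kinesins carry vesicles, organelles, RNA and ciliary components. Some of them are made in nearly all cells and others, such as KIF1A, KIF5A and KIF5C, mainly in neurons.

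The counts came from RNA sequencing of 6 libraries of RKO, an established human colorectal cancer line labelled wild type, 3 from cells given the PARP inhibitor olaparib and 3 from cells given the solvent DMSO. All cells were plated 24 h before treatment. The sources used here give neither the olaparib dose nor the length of exposure. Nor do they say that replicates were separate cultures, and the spread behind each p-value may therefore be technical.

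The libraries held 28715138 to 42423785 counts. Markers did not match the shared label. Of 10 markers of HEK293 and embryonic kidney cells, 8 reached a mean of 1 CPM (the usual unit of counts scaled to library size, here with TMM factors) in DMSO and 2 did so in olaparib. Their summed level was 266 to 466 CPM in DMSO and 8.69 to 10.1 CPM in olaparib, and LIN28B, NEFL, PAX2 and WT1 had no olaparib count. PAX8 of this list went the other way, at 6.33 ± 0.576 CPM in olaparib and 0.541 ± 0.160 CPM in DMSO. BEX1 was near absent from both groups, with 3 counts in olaparib and 7 in DMSO. Of 12 neuronal markers, 8 reached 1 CPM in each group, with sums of 339 to 409.6 CPM in DMSO and 47.0 to 53.4 CPM in olaparib. UCHL1 (13.9 ± 0.411 CPM in olaparib and 265 ± 33.7 CPM in DMSO) and INA held most of these sums. STMN2, DCX, ELAVL3 and ELAVL4 were near absent from both groups, with no olaparib count and 6, 2, 14 and 2 DMSO counts. Of 12 colorectal epithelial markers, 3 reached 1 CPM in each group: KRT8 and KRT18 in both, EPCAM in olaparib and CDX2 in DMSO. Their sums were 807 to 1089 CPM in olaparib and 242 to 311 CPM in DMSO, mostly from KRT8 and KRT18. The intestinal factor CDX2 went the other way, with no olaparib count and 24.5 ± 2.002 CPM in DMSO. CDX1 had no count in either group, CEACAM5 had none in olaparib and 3 in DMSO, and KRT19 had 5 in olaparib and none in DMSO. Directions below are therefore between libraries as labelled, and cell source and treatment cannot be told apart. The part of these markers in the kinesin differences was not tested.

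Most mitotic kinesin promoters held the letters of a cell cycle element that few transport kinesin promoters held. The cell cycle genes homology region, or CHR, is a short element of genes that peak in G2 and mitosis, and the CCAAT box is often found near it. RefSeq promoter windows on GRCh38.p14, reaching from 250 bases before to 50 bases after a start, were found for 34 of the 42 kinesins (43 windows). In 27 of the 43 windows, the 30 bases after the start were found in a GENCODE transcript of the gene. Motif presence and distances below therefore hold for the RefSeq starts alone. The letters TTTGAA or TTCGAA for the CHR, and CCAAT for the CCAAT box, were searched on both strands; TTCGAA reads the same on both. The CHR letters were present in 12 of 15 windows of mitotic kinesins (80.0%), in 1 of 16 windows of transport kinesins (6.25%) and in 16.4% of all 35116 windows of the table. CHR and CCAAT letters occurred together in 10 of the 15 mitotic windows (66.7%), against 6.38% of all windows. The same pair stood in 14 of 22 windows (63.6%) of a list of mitotic partner genes.

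These 120 bases before the start of 5 mitotic kinesins, of which 3 were lower and 2 higher in olaparib, show the arrangement, with both motifs in capitals. The CHR letters begin 10 to 55 bases before the start, and the CCAAT letters lie upstream of them.
KIF11 (chr10:92593010-92593129, plus strand): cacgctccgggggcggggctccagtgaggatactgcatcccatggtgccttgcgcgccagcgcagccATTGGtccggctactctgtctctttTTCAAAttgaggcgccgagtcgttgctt
KIF4A (chrX:70289984-70290103, plus strand): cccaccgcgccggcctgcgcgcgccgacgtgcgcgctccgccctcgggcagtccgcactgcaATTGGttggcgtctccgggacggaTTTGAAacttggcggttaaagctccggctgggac
KIF22 (chr16:29790631-29790750, plus strand): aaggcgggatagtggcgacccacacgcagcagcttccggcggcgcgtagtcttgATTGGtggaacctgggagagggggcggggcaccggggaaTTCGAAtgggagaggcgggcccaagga
KIF18A (chr11:28108157-28108276, minus strand): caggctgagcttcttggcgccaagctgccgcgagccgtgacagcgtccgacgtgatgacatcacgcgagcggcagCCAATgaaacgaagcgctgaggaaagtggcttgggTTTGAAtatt
KIF23 (chr15:69414229-69414348, plus strand): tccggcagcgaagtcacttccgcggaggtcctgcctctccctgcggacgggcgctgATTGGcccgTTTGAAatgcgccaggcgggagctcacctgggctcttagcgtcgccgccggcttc
The same stretch of 3 transport kinesins is given for contrast, from the most upstream window of each gene. KIF1A and KIF5C had no olaparib count, and KIF13A was higher in olaparib. None of the 3 stretches holds either motif, so all letters are lower case; the full window of KIF5C holds CCAAT farther upstream.
KIF1A (chr2:240821404-240821523, minus strand): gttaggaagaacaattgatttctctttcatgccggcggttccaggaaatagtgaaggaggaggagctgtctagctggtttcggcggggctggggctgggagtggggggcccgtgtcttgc
KIF5C (chr2:148875107-148875226, plus strand): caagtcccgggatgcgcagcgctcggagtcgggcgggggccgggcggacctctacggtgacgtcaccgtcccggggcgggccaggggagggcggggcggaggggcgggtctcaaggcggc
KIF13A (chr6:17987636-17987755, minus strand): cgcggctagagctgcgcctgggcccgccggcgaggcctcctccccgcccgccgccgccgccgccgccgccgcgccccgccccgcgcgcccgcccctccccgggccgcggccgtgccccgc
Over the mitotic kinesins, 11 of 14 genes held the CHR letters. In every one of these genes a copy began between 55 bases before and 30 bases after the start. KIF2B, KIF2C and KIF20A did not hold them in this window. A match of letters is a description of the sequence, not evidence that a factor binds there.

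Kinesins were called different between the groups in both directions, at a share near that of all genes. Of the 42 genes, 39 passed the filter on low counts. The quasi-likelihood test of edgeR, adjusted by Benjamini-Hochberg over all 17078 genes tested, called 14 kinesins higher and 18 lower in olaparib at 0.05, and 7 were not called. That is 82.1% of the tested kinesins, beside 75.7% of all tested genes (35.4% higher and 40.3% lower). The median log2 fold change was -0.09 over the kinesins and -0.09 over all tested genes. At least 2-fold differences were found in 15 kinesins (38.5%), 5 higher and 10 lower, beside 47.0% of all genes (22.0% higher and 25.0% lower). The groups did not overlap in 30 of the 39 (76.9%), beside 79.4% of all genes.

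KIF2B, KIF4B and KIF19 did not pass the filter. KIF2B, a microtubule depolymerase of the spindle, had no count in any library. KIF19, a depolymerase of motile cilia, held 2 counts in olaparib and 17 in DMSO; the scaled ratio was 6.41, with an exact 95% interval from 1.52 to 57.2. KIF4B is a retrogene whose coding sequence is 95.8% identical to that of KIF4A. It held 20 counts over the olaparib libraries and 14 over the DMSO libraries, and reads of these copies may not be separable.

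**Figure D1:**
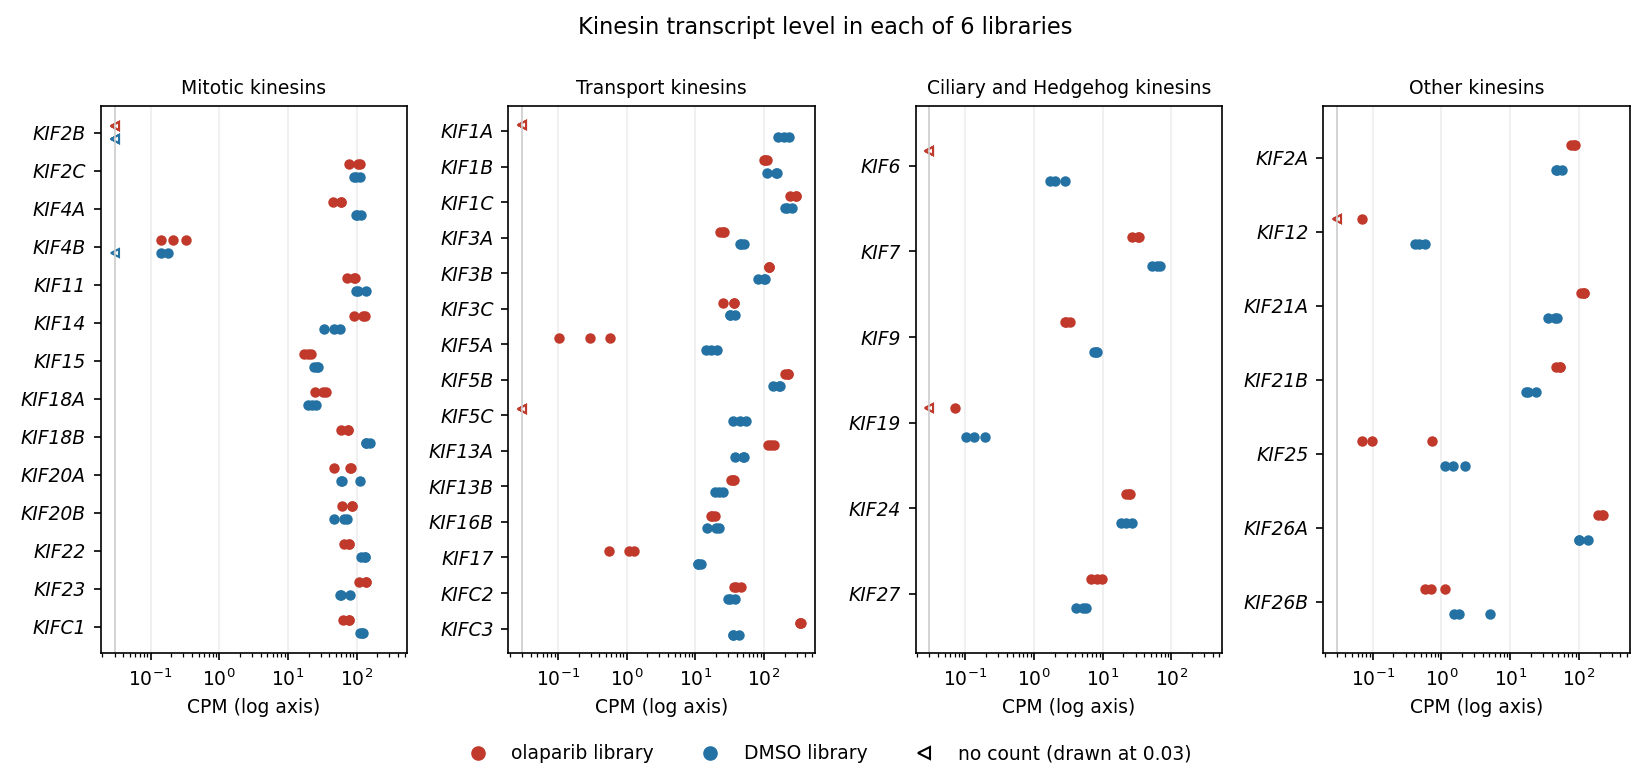
Level of each kinesin in each library, in CPM on a log axis, by class; red points are olaparib libraries and blue points DMSO libraries, and open triangles mark libraries without a count. Among mitotic kinesins with more than a few counts, the groups lie closer on this axis than those of KIF1A, KIF5C, KIF5A and KIF17. The groups still did not overlap in 8 of the 12 tested mitotic kinesins (66.7%), beside 79.4% of all genes.

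Mitotic kinesins differed in both directions and by small factors. Of 12 tested, 6 were lower, 3 were higher and 3 were not called, so 75.0% were called, beside 75.7% of all genes. Their median log2 fold change was -0.27 and their median absolute value 0.58, against 0.94 over all tested genes. Only KIF14 and KIF18B, 16.7% of the 12, reached 2-fold, beside 47.0% of all genes. The range ran from -1.06 to 1.35.

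KIF18B, which shortens astral microtubules, stood at 59.7, 75.1 and 74.3 CPM in the olaparib libraries and 159, 137 and 139 CPM in the DMSO libraries. All 3 olaparib values lay below all 3 DMSO values, with a log2 fold change of -1.06 ± 0.12 (SE, adjusted p = 4.21e-06) by edgeR's test. KIF4A, the chromokinesin that works with PRC1 at the midzone, stood at 45.0, 60.2 and 60.1 CPM in the olaparib libraries and 117, 100 and 99.4 CPM in the DMSO libraries, again without overlap. Its log2 fold change was -0.94 ± 0.13 (SE, adjusted p = 2.93e-05).

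KIF22, the chromokinesin that pushes chromosome arms away from the poles, stood at 66.4, 78.3 and 78.9 CPM in the olaparib libraries and 134, 135 and 118 CPM in the DMSO libraries (log2 fold change -0.79 ± 0.11, adjusted p = 2.69e-05). KIFC1, a minus-end motor that focuses spindle poles and clusters extra centrosomes, stood at 62.9, 78.9 and 78.1 CPM in the olaparib libraries and 126, 119.6 and 114 CPM in the DMSO libraries (log2 fold change -0.71 ± 0.11, adjusted p = 8.95e-05). For both genes the groups were separate, and DMSO was 1.73-fold and 1.63-fold higher. Exons of KIF22 and KIFC1 overlap another annotated gene on the opposite strand by 561 and 424 bases.

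KIF11, the plus-end motor that pushes spindle poles apart, was lower by a smaller factor. It stood at 72.8, 90.5 and 94.9 CPM in the olaparib libraries and 136, 99.0 and 105 CPM in the DMSO libraries, so that the highest olaparib value was just below the lowest DMSO value. The log2 fold change was -0.40 ± 0.14 (SE, adjusted p = 0.0201). KIF15, which can share this task, was lower as well, at 19.5 ± 2.35 against 26.2 ± 1.79 CPM (SD, n = 3; log2 fold change -0.42 ± 0.13, adjusted p = 0.0104).

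KIF14, KIF23 and KIF18A were higher in olaparib. KIF14, a motor of cytokinesis that binds PRC1 and citron kinase, stood at 91.7, 124 and 133 CPM in the olaparib libraries and 56.5, 33.9 and 46.3 CPM in the DMSO libraries. The groups were apart, with a log2 fold change of 1.35 ± 0.18 (SE, adjusted p = 2.42e-05). KIF23, the motor of the centralspindlin complex that sets the division plane, stood at 109.5, 137 and 136 CPM in the olaparib libraries and 79.4, 56.7 and 59.4 CPM in the DMSO libraries (log2 fold change 0.97 ± 0.14, adjusted p = 4.9e-05).

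The other members of the kinesin-6 family of cytokinesis motors were not called. KIF20A, which brings the Aurora B complex to the midzone, stood at 47.8, 81.6 and 82.2 CPM in the olaparib libraries and 111, 60.3 and 62.3 CPM in the DMSO libraries. KIF20B stood at 62.2, 85.1 and 85.7 CPM in the olaparib libraries and 73.4, 47.1 and 66.3 CPM in the DMSO libraries. The groups overlapped in both genes and neither was called (log2 fold changes -0.14 ± 0.26 and 0.32 ± 0.17, adjusted p = 0.635 and 0.101). KIF23 took 40.3 ± 3.22% of the summed level per kb of exon of these 3 genes in olaparib and 26.0 ± 2.17% in DMSO (SD, n = 3).

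KIF18A, which dampens chromosome movement at the spindle equator, stood at 24.8, 35.8 and 32.6 CPM in the olaparib libraries and 25.5, 19.9 and 22.4 CPM in the DMSO libraries. One olaparib value fell inside the DMSO range, and the log2 fold change was 0.46 ± 0.15 (SE, adjusted p = 0.0153). Its paralog KIF18B went the opposite way, so that KIF18A took 30.7 ± 1.48% of the pair's summed level per kb in olaparib and 13.4 ± 0.718% in DMSO. KIF2C, the depolymerase at centromeres that corrects wrong attachments, stood at 76.8, 113 and 106 CPM in the olaparib libraries and 112, 99.4 and 92.5 CPM in the DMSO libraries. It was not called (log2 fold change -0.04 ± 0.14, adjusted p = 0.812), and its groups overlapped.

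The mitotic kinesins varied together within groups. Olaparib replicate 1 was the lowest of its group for all 12 tested mitotic kinesins, and DMSO replicate 1 the highest of its group for 11 of 12. The same held for 22 and 21 of 24 mitotic partner genes, and for 8 and 7 of 13 transport kinesins with counts in both groups. The share over all tested genes was not counted. Over all genes with at least 20 counts, chi-square per degree of freedom was 24.0 and 26.7 for olaparib replicate 1 against replicates 2 and 3. It was 4.74 between olaparib replicates 2 and 3. For DMSO replicate 1 it was 68.6 and 43.5, against 31.9 between DMSO replicates 2 and 3. Without olaparib replicate 1 and DMSO replicate 1, an alternative chosen after seeing the data, 5 mitotic kinesins were higher and 4 lower. Of all genes tested there, 74.1% were called. In that setting the calls of KIF11 (log2 fold change -0.14, adjusted p = 0.248) and KIF15 (-0.30, adjusted p = 0.0647) were lost, and KIF20A (0.42, adjusted p = 0.00542) and KIF20B (0.59, adjusted p = 0.00576) were called higher. KIF4A, KIF18B, KIF22, KIFC1, KIF14, KIF23 and KIF18A kept their direction and call there. KIF11 was also not called without olaparib replicate 1 alone (adjusted p = 0.0921) or DMSO replicate 1 alone (adjusted p = 0.0698). KIF20B was called higher without either of them (adjusted p = 0.0289 and 0.0341). KIF18A was not called without olaparib replicate 2 (adjusted p = 0.0893), DMSO replicate 2 (0.0577) or DMSO replicate 3 (0.0548).

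**Figure D2:**
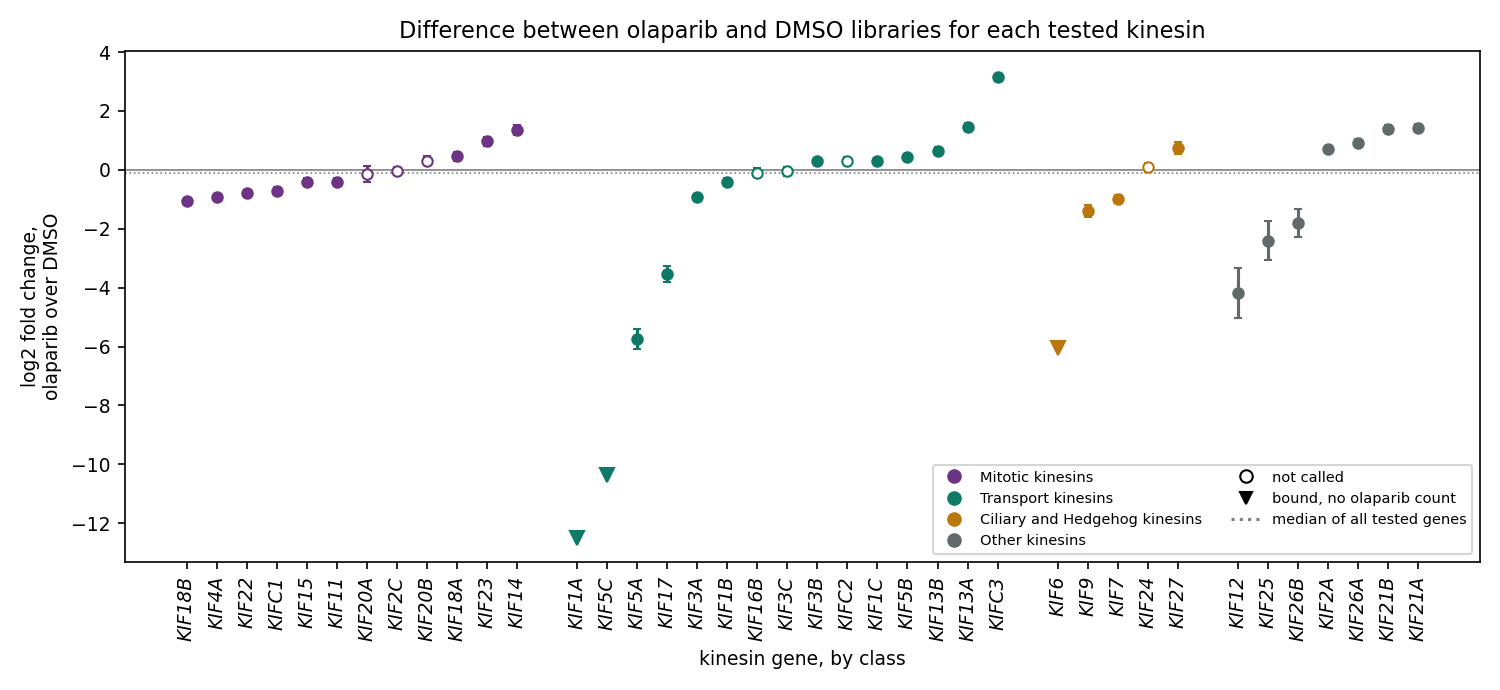
Log2 fold change of olaparib over DMSO for the 39 tested kinesins, by class; bars are standard errors, open points were not called at 0.05, and triangles are bounds for genes without an olaparib count, which lie at or below the triangle. Mitotic kinesins lie between -1.06 and 1.35, while transport kinesins reach from the KIF1A bound at the bottom to KIFC3 at 3.14.

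Partners of the mitotic kinesins differed in both directions as well. Of 24 genes in a list of spindle, midzone and mitotic regulators, 5 were higher, 8 lower and 11 were not called (54.2% called, beside 75.7% of all genes), with a median log2 fold change of 0.04. Named by smallest adjusted p, BIRC5, a subunit of the Aurora B complex, was 5.22-fold lower (71.1 ± 13.3 against 372 ± 69.4 CPM, adjusted p = 9.05e-08). CDCA8, of the same complex, was 2.37-fold lower and CKAP5, a microtubule polymerase, 1.90-fold lower. In the other direction, BUB1B of the spindle checkpoint was 1.55-fold higher, the proliferation marker MKI67 1.75-fold higher and PRC1, the midzone crosslinker that KIF4A and KIF14 bind, 1.77-fold higher at only 3.99 ± 0.583 against 2.23 ± 0.536 CPM. Adjusted p-values of these 6 lay between 9.05e-08 and 0.0129. MKI67 stood at 351, 559.7 and 519.6 CPM in olaparib and at 366, 184 and 268 CPM in DMSO, so its groups overlapped. CENPE, the kinetochore kinesin outside the symbol rule, was not called, at 47.1 ± 10.9 against 55.2 ± 15.2 CPM (adjusted p = 0.324). Without olaparib replicate 1 and DMSO replicate 1 together, 18 of the 24 genes were called, beside 74.1% of all genes in that setting.

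Transport kinesins held the largest rise of the family, KIFC3, and its 2 largest falls, KIF1A and KIF5C. Of 15, all tested, 6 were higher, 6 lower and 3 were not called, which is 80.0% called, beside 75.7% of all genes. The median log2 fold change was -0.05, also with the 2 genes that lacked olaparib counts set to their bounds. At least 2-fold differences were found in 6 of the 15 (40.0%, beside 47.0% of all genes), 4 lower and 2 higher.

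Among transport kinesins, the 4 largest falls were in KIF1A, KIF5C, KIF5A and KIF17. KIF1A, the motor of synaptic and dense-core vesicle precursors, stood at 232, 159 and 198 CPM in the DMSO libraries and had no count in any olaparib library. KIF5C, a kinesin-1 heavy chain enriched in neurons, stood at 54.1, 35.6 and 44.5 CPM in DMSO and also had no olaparib count. A floor of 3 counts over the 3 olaparib libraries corresponds to 0.0343 CPM, so that, by counts and scaled library sizes each summed over the 3 libraries of a group, KIF1A was at least 5850-fold and KIF5C at least 1333-fold lower. Genes with 2 counts outnumbered those with 1 in all 6 libraries, and floors and intervals, which reflect counting error alone and take each count as independent, may be too narrow. In bulk RNA, fewer cells that make a transcript and less of it per cell cannot be told apart.

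KIF5A, the kinesin-1 heavy chain of neurons, retained 28 olaparib counts and stood at 0.105, 0.294 and 0.566 CPM in the olaparib libraries and 20.5, 14.3 and 17.2 CPM in the DMSO libraries. The log2 fold change was -5.74 ± 0.35 (SE, adjusted p = 2.73e-08), and the fold ran from 40.4 to 83.0 as each library was left out, with the largest value without olaparib replicate 3. KIF17, a motor of dendritic cargo and of cilia, stood at 0.558, 1.08 and 1.27 CPM in the olaparib libraries and 10.8, 12.2 and 11 CPM in the DMSO libraries (log2 fold change -3.54 ± 0.27, adjusted p = 1.76e-07). Sums of the neuronal and HEK293 markers given above were lower in olaparib too, whereas SNAP25 and PAX8 of these lists were higher and TUBB3 was not called. A link between the markers and these 4 falls was not tested.

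The broadly made heavy chain KIF5B was higher in olaparib. It stood at 201, 222 and 224 CPM in the olaparib libraries and 174, 137 and 167 CPM in the DMSO libraries, without overlap, and its log2 fold change was 0.44 ± 0.11 (SE, adjusted p = 0.00371). With no KIF5C count and few KIF5A counts in olaparib, KIF5B made up 99.9 ± 0.0945% of the kinesin-1 level per kb of exon there. In DMSO it made up 78.2 ± 1.56%, KIF5C 13.9 ± 1.11% and KIF5A 7.93 ± 0.465%. The summed level of the 3 heavy chains was 36.8 ± 2.23 CPM per kb in olaparib and 34.7 ± 4.75 in DMSO, which differed by less than the spread between replicates.

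**Figure D3:**
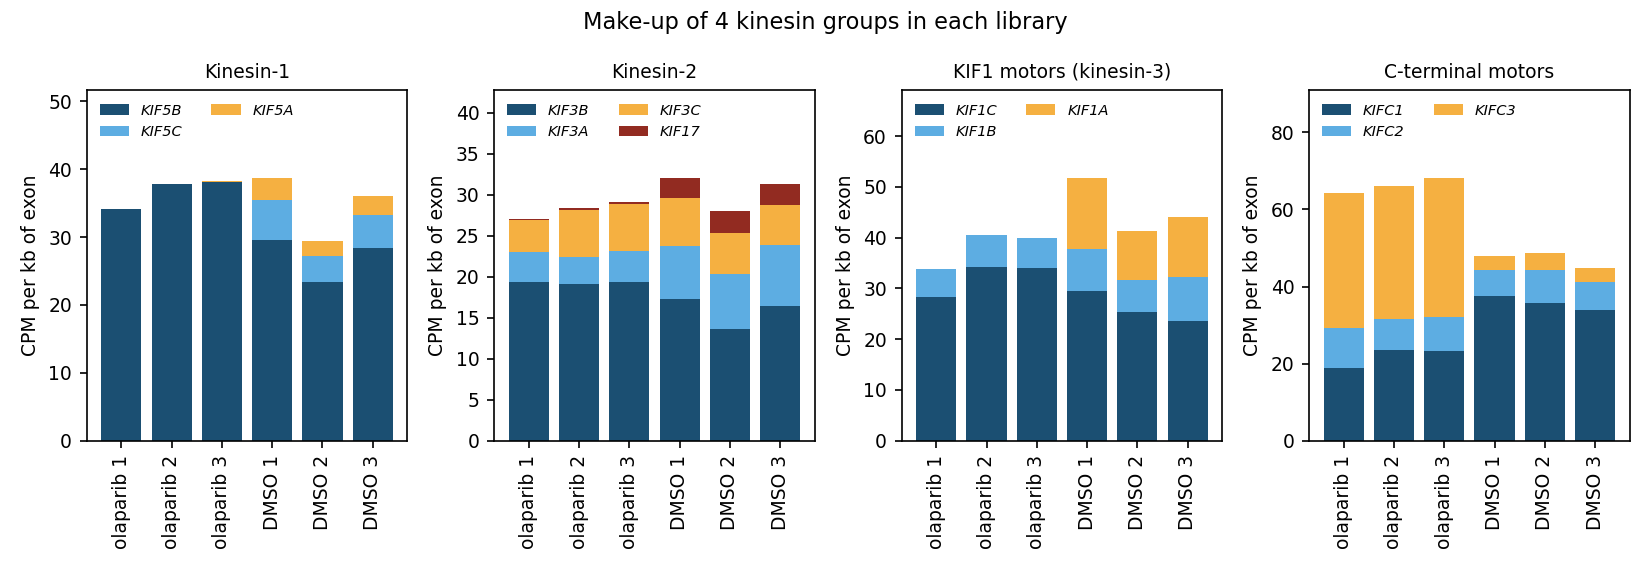
Stacked level of the members of 4 kinesin groups in each library, in CPM per kb of exon. KIF5B fills the kinesin-1 bar in all 3 olaparib libraries, KIF1A and most of KIF17 are missing there, and KIFC3 makes up over 50% of the C-terminal motors in olaparib.

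The KIF1 motors showed the same kind of shift in make-up. KIF1C, a motor of Golgi and RNA transport, stood at 243, 293 and 292 CPM in the olaparib libraries and 253, 218 and 202 CPM in the DMSO libraries. KIF1B, which carries mitochondria and synaptic vesicle precursors, stood at 99.0, 111 and 104 CPM in the olaparib libraries and 149, 112 and 153 CPM in the DMSO libraries. Olaparib values of KIF1C overlapped those of DMSO, whereas KIF1B was lower in every olaparib library than in any DMSO library. Their log2 fold changes were 0.30 ± 0.12 (SE, adjusted p = 0.0382) and -0.40 ± 0.12 (SE, adjusted p = 0.0111). KIF1C made up 84.5 ± 0.890% of the 3 motors per kb in olaparib and 57.3 ± 4.14% in DMSO, where KIF1A took 25.6 ± 2.23%. The call of KIF1C was lost with library size alone (0.23, adjusted p = 0.0955) and without olaparib replicate 2 (0.141), olaparib replicate 3 (0.1), DMSO replicate 2 (0.0767) or DMSO replicate 3 (0.164). It was also lost with the replicate number as a block (adjusted p = 0.0784). The call of KIF1B was lost without olaparib replicate 1 and DMSO replicate 1 together (adjusted p = 0.0795).

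Kinesin-2 motors include KIF3A and KIF3B with the adaptor KIFAP3, which drive intraflagellar transport, and the KIF17 dimer. KIF3A stood at 25.5, 23.1 and 26.5 CPM in the olaparib libraries and 44.9, 46.0 and 50.6 CPM in the DMSO libraries, without overlap (log2 fold change -0.91 ± 0.11, adjusted p = 8.69e-06). Its partner KIF3B moved the other way by a small factor, from 105, 83.0 and 101 CPM in DMSO to 118, 116 and 118 CPM in olaparib (log2 fold change 0.29 ± 0.11, adjusted p = 0.0278). The KIF3B call was lost with library size alone (adjusted p = 0.0936) and without olaparib replicate 1 (0.0651), 2 (0.0706) or 3 (0.0557) or DMSO replicate 2 (0.069). KIFAP3, named after its values were seen, was lower, at 35.4 ± 1.79 CPM in olaparib and 49.4 ± 4.50 CPM in DMSO. Its log2 fold change was -0.48 ± 0.11 (SE, adjusted p = 0.00144 by edgeR's test). KIF3C, which pairs with KIF3A in neurons, stood at 25.2, 36.3 and 36.0 CPM in the olaparib libraries and 37.4, 32.1 and 31.6 CPM in the DMSO libraries, with overlapping groups and no call (adjusted p = 0.752). Per kb, KIF3A was 13.0 ± 0.967% of kinesin-2 in olaparib and 22.7 ± 1.90% in DMSO, KIF3B 68.3 ± 2.61% and 51.7 ± 2.78%.

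KIFC3 had the largest rise of the family. This minus-end motor, known from transport to apical membranes and from adherens junctions, stood at 336, 330.3 and 345 CPM in the olaparib libraries and 35.5, 43.2 and 35.9 CPM in the DMSO libraries. The groups were far apart, 8.83-fold by edgeR's fit (log2 fold change 3.14 ± 0.11, adjusted p = 5.24e-10), and the fold stayed between 8.46 and 9.36 as each library was left out. KIFC3 lies on chromosome 16 from 57758217 to 57863053 (hg38), where 52 other tested protein-coding genes within 5 Mb had a median log2 fold change of -0.12. Its exons overlap 2 other annotated genes, the longest stretch being 441 bases on the opposite strand. KIFC2, the related motor of dendrites and axons, was not called, at 46.4, 36.0 and 39.3 CPM in the olaparib libraries and 29.7, 38.1 and 31.8 CPM in the DMSO libraries (log2 fold change 0.29 ± 0.13, adjusted p = 0.0612), and its exons overlap FOXH1 on the opposite strand by 791 bases. KIFC2 was called with the stricter filter (adjusted p = 0.0484), with counts divided by 2 (0.0493), without olaparib replicate 2 (0.0437) and without DMSO replicate 2 (0.0165).

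KIF13A and KIF13B were also higher. KIF13A, which moves recycling endosomes and melanosome cargo, stood at 114, 127 and 140.2 CPM in the olaparib libraries and 51.3, 38.4 and 49.3 CPM in the DMSO libraries (log2 fold change 1.45 ± 0.13, adjusted p = 6.28e-07). KIF13B stood at 36.8, 32.8 and 35.7 CPM in the olaparib libraries and 22.0, 19.6 and 25.7 CPM in the DMSO libraries (log2 fold change 0.64 ± 0.13, adjusted p = 0.000517). Both pairs of groups were separate. Exons of KIF13B overlap 2 other annotated genes, the longest stretch being 585 bases on the opposite strand. KIF16B, a motor of early endosomes that binds phosphoinositides, stood at 16.7, 19.4 and 17.7 CPM in the olaparib libraries and 22.5, 15 and 19.8 CPM in the DMSO libraries and was not called (log2 fold change -0.09 ± 0.16, adjusted p = 0.604). KIF16B lies on the short arm of chromosome 20, where 30 other tested protein-coding genes within 5 Mb had a median log2 fold change of -1.41.

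Summed over each class, the balance between mitotic and transport kinesins shifted. The 14 mitotic kinesins summed to 152, 203 and 203 CPM per kb of exon in the olaparib libraries and to 257, 210.4 and 211 in DMSO. The means were 186 ± 29.4 and 226 ± 26.6 (SD, n = 3), and olaparib replicate 1 and DMSO replicate 1 lay farthest apart. The 15 transport kinesins summed to 156, 166 and 170.1 in olaparib and to 142, 119 and 132 in DMSO. The ratio of mitotic to transport level was 0.973, 1.23 and 1.19 in olaparib and 1.80, 1.77 and 1.60 in DMSO, without overlap. No p is given, since the members were chosen with results known. Without KIFC3, left out after its values were seen, the transport sum was 129 ± 6.81 in olaparib and 127 ± 12.1 in DMSO (SD, n = 3). The ratio was then 1.25, 1.55 and 1.51 in olaparib and 1.85, 1.84 and 1.65 in DMSO.

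**Figure D4:**
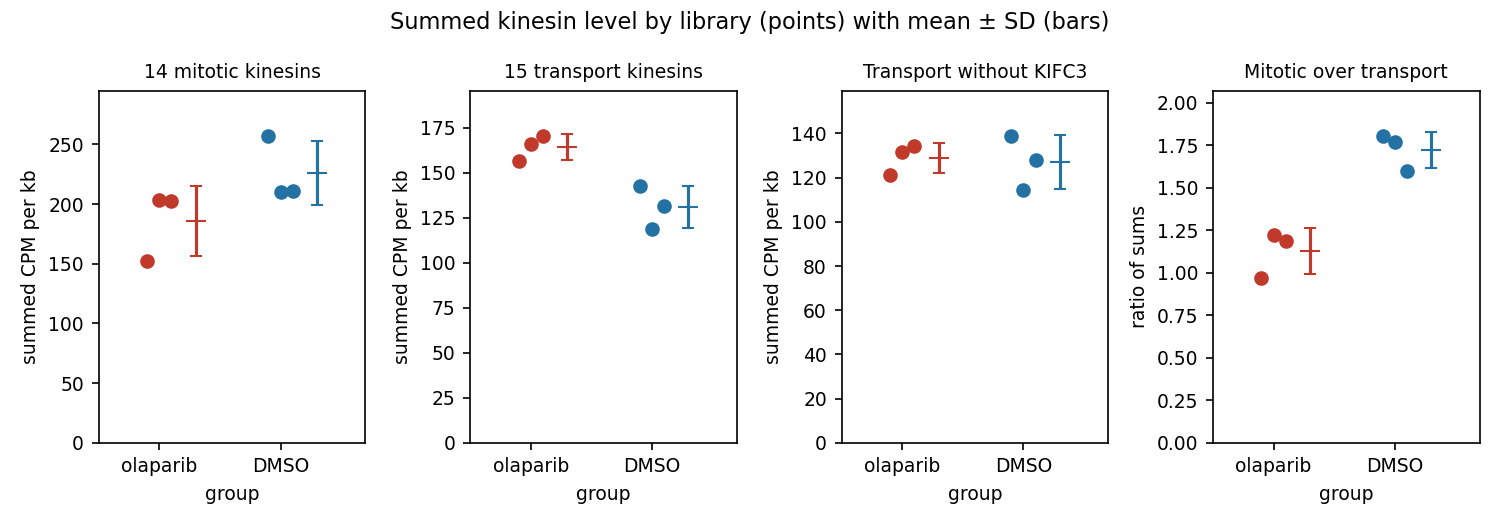
Summed level of mitotic and of transport kinesins in each library, in CPM per kb of exon, the transport sum without KIFC3, and the ratio of mitotic to transport sums; points are libraries and bars the mean ± SD over 3. The ratio is 0.973 to 1.23 in olaparib and 1.60 to 1.80 in DMSO, and the transport sums overlap once KIFC3 is left out.

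The order of levels per kb differed between the groups. In DMSO the highest were KIFC1 (35.8 ± 1.79 CPM per kb), KIF18B (31.2 ± 2.59), KIF22 (29.9 ± 2.28) and KIF2C (27.8 ± 2.69), which are mitotic, where KIF18B and KIF22, and KIF22 and KIF2C, lay within 1 SD of each other. The transport kinesins KIF5B (27.1 ± 3.32) and KIF1C (26.2 ± 2.998) came next and lay within 1 SD of KIF2C. In olaparib the highest were KIF5B (36.7 ± 2.20 CPM per kb), KIFC3 (35.1 ± 0.788), KIF1C (32.2 ± 3.35) and KIF26A (31.4 ± 2.83), and each neighbouring pair in this order lay within 1 SD of its more variable member. KIFC3 stood at rank 2 of 42 in olaparib and rank 27 in DMSO, and KIF1A at rank 13 in DMSO. These levels assume the exon length of all annotated transcripts, whichever is made.

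Adaptors of the transport kinesins were called at a share near that of all genes. Of 25 light chains, scaffolds and cargo adaptors, 8 were higher, 11 lower and 6 were not called (76.0%, beside 75.7% of all genes), with a median log2 fold change of -0.17. The JNK scaffold MAPK8IP2, which binds kinesin light chains, was 71.6-fold lower (0.594 ± 0.0314 against 42.8 ± 3.59 CPM, adjusted p = 1.03e-10). FEZ1, a kinesin-1 adaptor of axons, was 75.6-fold lower (0.393 ± 0.226 against 30.4 ± 0.390 CPM) and MAP7D2, which recruits kinesin-1 to microtubules, 252-fold lower (0.115 ± 0.0816 against 29.7 ± 8.85 CPM). Rises were smaller: the scaffold MAPK8IP3 was 1.99-fold higher (194 ± 3.01 against 97.6 ± 7.25 CPM), MAP7, the relative of MAP7D2, 1.88-fold higher, and DENND4C 2.79-fold higher. Adjusted p-values of these 5 lay between 1.21e-09 and 8.46e-06. The light chains split, with KLC2 and KLC3 2.87-fold and 6.14-fold lower, KLC4 2.11-fold higher and KLC1 not called (adjusted p = 0.177). KLC genes were named after their values were seen.

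Cytoplasmic dynein, the opposing motor, and its cofactor dynactin were called in both directions, with 9 of 24 tested genes higher, 9 lower and 6 not called (75.0%, beside 75.7% of all genes; median -0.16). The dynein subunits DYNC1LI1 and DYNLT1 were 3.65-fold and 5.36-fold lower and the dynactin subunit DCTN3 2.34-fold lower. The dynein regulators PAFAH1B1 and NDEL1 were 1.78-fold and 1.68-fold higher, and the dynactin subunit DCTN6 2.63-fold higher, with adjusted p-values of the 6 between 1.16e-08 and 1.19e-05. Other dynein subunits, named after their values were seen, split as well. The heavy chain DYNC1H1, DYNC1LI2 and DYNC1I2 were higher, with log2 fold changes of 0.94, 0.76 and 0.58. Their adjusted p-values by edgeR's test were 0.000176, 0.000103 and 0.000122. DYNLL1 and DYNLL2 were lower, with log2 fold changes of -0.99 and -0.68. Of 22 intraflagellar transport genes, 5 were higher, 10 lower and 7 were not called (68.2%, beside 75.7% of all genes; median -0.22). IFT27, IFT46 and IFT52 were 3.76-fold, 2.92-fold and 2.85-fold lower, and these belong to the IFT-B complex that kinesin-2 pulls. IFT80, also of IFT-B, was 2.33-fold higher, and IFT140 and WDR19 of the IFT-A complex 1.69-fold and 2.06-fold higher, with adjusted p-values of the 6 between 2.46e-08 and 4.47e-05.

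Among the 6 kinesins of cilia and Hedgehog signalling, 5 were tested, 3 of them lower, 1 higher and 1 not called (80.0% called, beside 75.7% of all genes). KIF7, the regulator of GLI factors at the ciliary tip, stood at 26.9, 32.1 and 33.3 CPM in the olaparib libraries and 69.3, 61.0 and 53.0 CPM in the DMSO libraries, without overlap (log2 fold change -0.99 ± 0.13, adjusted p = 1.76e-05). KIF9, a motor of motile cilia, stood at 3.31, 2.87 and 2.80 CPM in the olaparib libraries and 7.57, 8.22 and 7.93 CPM in the DMSO libraries (log2 fold change -1.40 ± 0.19, adjusted p = 3.22e-05). Its exons overlap KIF9-AS1 on the opposite strand by 870 bases, and KIF9-AS1 was lower too, with 45, 61 and 56 counts in olaparib and 286, 168 and 280 in DMSO, so reads of the pair may not be separable. Exons of KIF7 overlap TICRR by 589 bases.

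KIF6, a motor of motile cilia, had no olaparib count and stood at 2.85, 1.72 and 2.03 CPM in DMSO, where the same floor and summed counts make it at least 65.6-fold higher. KIF27, a relative of KIF7, was higher, at 9.70, 6.83 and 8.28 CPM in the olaparib libraries and 4.13, 5.63 and 5.22 CPM in the DMSO libraries (log2 fold change 0.73 ± 0.21, adjusted p = 0.00677), and its call was lost without olaparib replicate 1 and DMSO replicate 1 together (adjusted p = 0.0542). Exons of KIF27 overlap 2 other annotated genes, the longest stretch being 441 bases on the opposite strand. KIF24, which remodels centriolar microtubules and restrains cilium growth, overlapped between groups at 21.8, 24.9 and 24.5 CPM in the olaparib libraries and 22.0, 18.5 and 26.6 CPM in the DMSO libraries and was not called (log2 fold change 0.09 ± 0.14, adjusted p = 0.605).

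All 7 remaining kinesins were called, 4 higher and 3 lower, beside 75.7% of all genes. Their groups did not overlap, beside 79.4% of all genes. KIF21A and KIF21B, which limit microtubule growth, rose by nearly the same factor. KIF21A stood at 108, 120.02 and 119.9 CPM in the olaparib libraries and 44.7, 35.5 and 48.2 CPM in the DMSO libraries (log2 fold change 1.44 ± 0.12, adjusted p = 4.38e-07) and KIF21B at 46.8, 53.9 and 53.9 CPM in the olaparib libraries and 18.1, 16.9 and 23.6 CPM in the DMSO libraries (log2 fold change 1.40 ± 0.14, adjusted p = 1.71e-06). KIF21A took 73.0 ± 0.437% of the pair per kb in olaparib and 72.5 ± 2.02% in DMSO.

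KIF26A, an atypical kinesin without motor activity, stood at 191, 217 and 228 CPM in the olaparib libraries and 137, 101 and 98.9 CPM in the DMSO libraries (log2 fold change 0.92 ± 0.13, adjusted p = 5.12e-05). KIF2A, a depolymerase that acts in neurites and at spindle poles, stood at 77.0, 86.9 and 84.5 CPM in the olaparib libraries and 56.3, 48.5 and 46.4 CPM in the DMSO libraries (log2 fold change 0.72 ± 0.11, adjusted p = 6.22e-05). Exons of KIF2A overlap IPO11 on the same strand by 428 bases, so some reads of the 2 genes may not be separable. With KIF2A counted among the mitotic kinesins, 4 were higher and 6 lower, beside 75.7% of all genes called.

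KIF26B, KIF25 and KIF12 were lower, all at low levels. KIF26B stood at 0.698, 1.11 and 0.566 CPM in the olaparib libraries and 5.03, 1.82 and 1.51 CPM in the DMSO libraries (log2 fold change -1.81 ± 0.48, adjusted p = 0.0045). DMSO replicate 1 was far above the other DMSO values, and without it the fold fell to 2.10 from 3.51. KIF25 stood at 0.733, 0.0980 and 0.0708 CPM in the olaparib libraries and 1.47, 2.22 and 1.13 CPM in the DMSO libraries (log2 fold change -2.40 ± 0.65, adjusted p = 0.00511). Here olaparib replicate 1 held 21 of 26 olaparib counts, and without it the fold rose to 18.1 from 5.29. KIF12 held 2 olaparib counts, both in replicate 1, and 55 DMSO counts; the scaled ratio was 20.7, with an exact 95% interval from 5.48 to 176.

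Chromosomal position gave context for a few members. KIF1A lies on chromosome 2 from 240713761 to 240821036 (hg38), where 44 other tested protein-coding genes within 5 Mb had a median log2 fold change of -1.50. The neighbours of KIF25 on chromosome 6 had a median of -1.16, those of KIF15 and KIF9 on chromosome 3 -0.83 and -0.82, and those of KIF21A on chromosome 12 0.71. KIF5C lies on chromosome 2 from 148875250 to 149026759, and its 21 neighbours had a median of -0.21. KIF5A on chromosome 12 and KIF13A on chromosome 6 had neighbours near 0, at 0.13 and 0.00. Whether a kinesin moved apart from its neighbours was not tested.

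**Figure D5:**
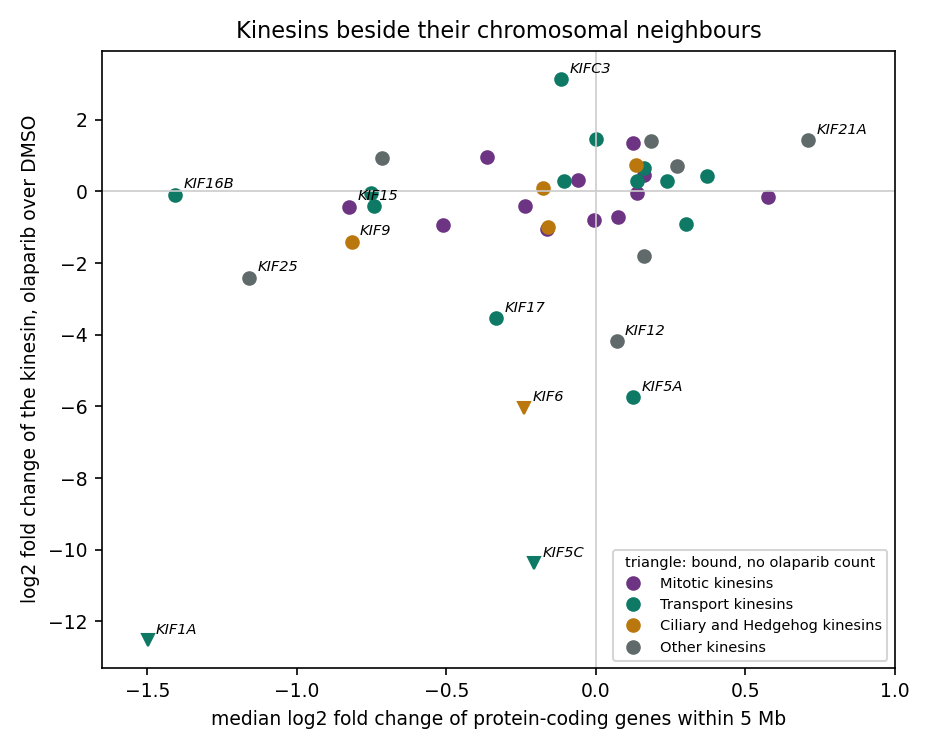
Log2 fold change of each tested kinesin against the median log2 fold change of tested protein-coding genes within 5 Mb, other kinesins left out; colours are classes and triangles are bounds. KIF1A, KIF16B and KIF25 have neighbours with a median below -1, while the neighbours of KIF5C, KIF5A, KIF12 and KIFC3 lie between -0.21 and 0.13.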

How the data were processed

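Raw read counts for 39396 symbols in 6 libraries were deposited by the authors in 1 table. Fastp, STAR and hg38 are named in the submitters' processing notes, but the sources used here give no counting program, strand setting or annotation. Columns were matched to samples by title. The test was the robust quasi-likelihood fit of edgeR 4.0.16 (R 4.3.3) with group as the only term, after its default filter and TMM scaling. It was also run on simulated counts in which only 200 genes were changed. That run cannot show how the fit or the scaling behaves here, where 75.7% of genes were called. P-values were adjusted over all 17078 genes tested. Standard errors come from the F statistic. Exon lengths, positions and exon overlaps came from GENCODE release 29 on the same assembly, matched by symbol for all 42 kinesins.

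Replicates were not duplicates: chi-square per degree of freedom between them was 4.74 to 68.6. Alternatives were DESeq2 1.42.0, limma-voom (limma 3.58.1), RLE factors, library size alone, 2 other filters, the replicate number as a block, counts divided by 2 and the loss of each library. The kinesins, classes and lists were chosen with earlier results of these data known. Named within each class were the 4 highest kinesins, the 4 largest called rises and falls, those with no count in 1 group, those not called at 10 CPM or more, KIF1A and KIF4B; KIF3A, KIF3B, KIF15, KIF19 and KIF2B complete the account of the members. Of each other list, up to 3 genes per direction with the smallest adjusted p were named.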

Additional observations from a re-analysis of the deposited data

How the results depend on the processing

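Of the 39 tested kinesins, 28 kept their direction and call under every one of the 14 other settings that gave a value. The counts of kinesins called higher (12 to 15) and lower (17 to 18) stayed within 1.5 times over these settings, as did the count over all genes, which was 12337 to 13166 as each library was left out. Among kinesins without a call, 5 changed sign when 1 library was left out, and what caused this was not tested. Log2 fold changes ran from -0.14 to 0.11 for KIF2C, -0.14 to 0.10 for KIF3C and -0.31 to 0.19 for KIF20A, which turned higher without olaparib replicate 1 (0.11, 0.10 and 0.07) and without DMSO replicate 1 (0.027, 0.017 and 0.19). They ran from -0.25 to 0.028 for KIF16B, higher without DMSO replicate 1, and from -0.045 to 0.21 for KIF24, lower without DMSO replicate 2. Without olaparib replicate 1 and DMSO replicate 1 together, chosen after seeing the data, KIF2C gave 0.19, KIF3C 0.18, KIF20A 0.42 and KIF16B 0.086. In that setting 5 mitotic kinesins and 0 ciliary kinesins were higher, against 3 and 1 over all libraries, and the call of KIF26B was lost (-0.98, adjusted p = 0.0602). Of all genes tested there, 74.1% were called.

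Deviations from group means of same-numbered libraries correlated at -0.18, -0.13 and -0.011, beside -0.11 to 0.18 for libraries of different number. Deviations cancel out within each small group, so these values cannot show whether libraries were handled in pairs. With the replicate block, 12426 genes were called, among them 13 kinesins higher and 18 lower. Log2 fold changes of genes without an olaparib count depend on the prior count of the fit, and bounds are given for them. Depth limits KIF2B, KIF4B, KIF12, KIF19 and KIF25, which held at most 26 counts over the olaparib libraries.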

Other observations

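Several rows related to the kinesins lie outside the symbol rule. KIF28P, annotated by its symbol as a pseudogene, held 133, 108 and 73 counts in olaparib and 29, 14 and 50 in DMSO, a log2 fold change of 2.20 ± 0.37 (SE, adjusted p = 0.000148 by edgeR's test). STARD9, a kinesin-3 relative of centrosomes, was 1.66-fold lower in olaparib, at 12.8 ± 0.612 against 21.2 ± 6.87 CPM (SD, n = 3; adjusted p = 0.0068 by edgeR's test). KIF5C-AS1 had no olaparib count and held 7, 2 and 8 counts in DMSO. KIF1C-AS1 held 26, 16 and 14 counts in olaparib and 7, 11 and 9 in DMSO. The promoter window of KIF24 held both the CHR and the CCAAT letters, and its level was not called different, and KIF5B was the transport kinesin whose window held both.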
